A study of Mus musculus with 8 samples.

Results

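The TAM receptors *Axl*, *Mertk* and *Tyro3* and the bridging molecules *Gas6*, *Pros1* and *Mfge8* of efferocytosis, the uptake of dying cells, were examined in sorted microglia. These 6 genes were found by gene symbol among the 55573 genes listed in the counts. The RNA came from 4 mice carrying homozygous floxed *Smad2* and *Smad3* alleles and Cre at the *Cx3cr1* locus (Smad2/3 fl/fl;Cx3cr1Cre, called mutants) and from 4 control littermates, all at postnatal day 60, with 1 library per mouse. The labels call the controls wild-type, whereas the study's methods state that controls generally carried Cre and a single floxed allele, and that mice were backcrossed to C57BL6/J, apart from a constitutive null line that is not part of these samples. *Cx3cr1* drives Cre in microglia and in other macrophages, including those of the brain borders. By the study's reporting summary the sort kept live CD45-positive and CD11b-positive cells, a gate that border macrophages also pass. The methods add that CD45 and CD11b were examined on cells positive for tdTomato, a Cre reporter. The products of *Smad2* and *Smad3* relay canonical TGFβ signals from the receptor to the genome.

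Microglia recognise dying cells by phosphatidylserine, a lipid that healthy cells keep on the inner face of the membrane. The TAM receptors, *Tyro3*, *Axl* and *Mertk*, are receptor tyrosine kinases that do not bind this lipid themselves but through the bridging ligands *Gas6* and *Pros1*, whose vitamin K-dependent γ-carboxyglutamate domain holds the membrane of the dying cell. *Pros1* (protein S) activates *Tyro3* and *Mertk*, whereas *Gas6* activates all of the TAM receptors and is the ligand of *Axl*. *Mfge8* (lactadherin) is a bridge of another kind, which binds phosphatidylserine and is recognised by αv integrins on the phagocyte. In the brain, *Mertk* is known as a receptor of resting microglia and *Axl* as one that rises in reactive microglia and brain border macrophages.

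Several features of the libraries bear on what follows. Libraries held 35639502 to 41946479 counts. *Smad3* was lower in mutants (log2 fold change -1.33, SE 0.36, edgeR adjusted p = 0.0429), with mutant 3 the highest of its group at 35.1 CPM, and *Smad2* did not pass the test (log2 fold change -0.34, SE 0.22, adjusted p = 0.340). Without mutant 3 the *Smad3* log2 fold change was -1.79 (adjusted p = 0.00432), and leaving out any other mouse ended that call, the values remaining between -1.42 and -1.11. Counts cover whole genes, so exons outside a floxed interval are included. The mutants were male and the controls female by their sex-linked transcripts: *Xist* was at 99.3 to 183 CPM in controls and 0.0276 to 0.561 CPM in mutants, and *Ddx3y* at 9.73 to 59.7 CPM in mutants and at most 0.224 CPM in controls. Genotype and sex can therefore not be told apart in any result given here, including those for the 6 genes, which all lie on autosomes. Of 10 microglia markers, 9 were called lower in mutants, and the summed level of the 10 was 5554 to 7979 CPM against 31283 to 47750 CPM in controls. The 9 include *Cx3cr1*, the locus that carries Cre, with group means of 1319 CPM for mutants and 6622 CPM for controls. The part of the Cre allele in that fall was not tested. If the controls were wild-type, as labelled, carrying the Cre allele also cannot be told apart from the floxed genotype in any result. Of 7 border macrophage markers, 6 were called higher, with sums of 1826 to 2890 CPM against 31.3 to 45.2 CPM. None of the markers of either list was at 0 in a whole group. Of blood leukocyte markers 3 of 12 were called (2 higher, 1 lower), of mural and fibroblast markers 1 of 5 tested (lower), and of endothelial markers 0 of 4 tested (1 at an unadjusted p under 0.05, and 1 in DESeq2).

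Of the 6 genes, 3 changed: *Axl* rose, and *Mertk* and *Pros1* fell. All 6 passed the filter on low counts and were tested together with all other genes that did, and a call is an adjusted p under 0.05 in edgeR's quasi-likelihood test. Over all 20153 tested genes, 12.3% were called, 4.36% as higher and 7.97% as lower in mutants, and 22.1% had groups that did not overlap in CPM. The 3 called genes (50% of the 6) were also the 3 whose groups did not overlap. CPM are counts scaled to the TMM-corrected library size, and are compared between libraries for 1 gene only.

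**Figure D1:**
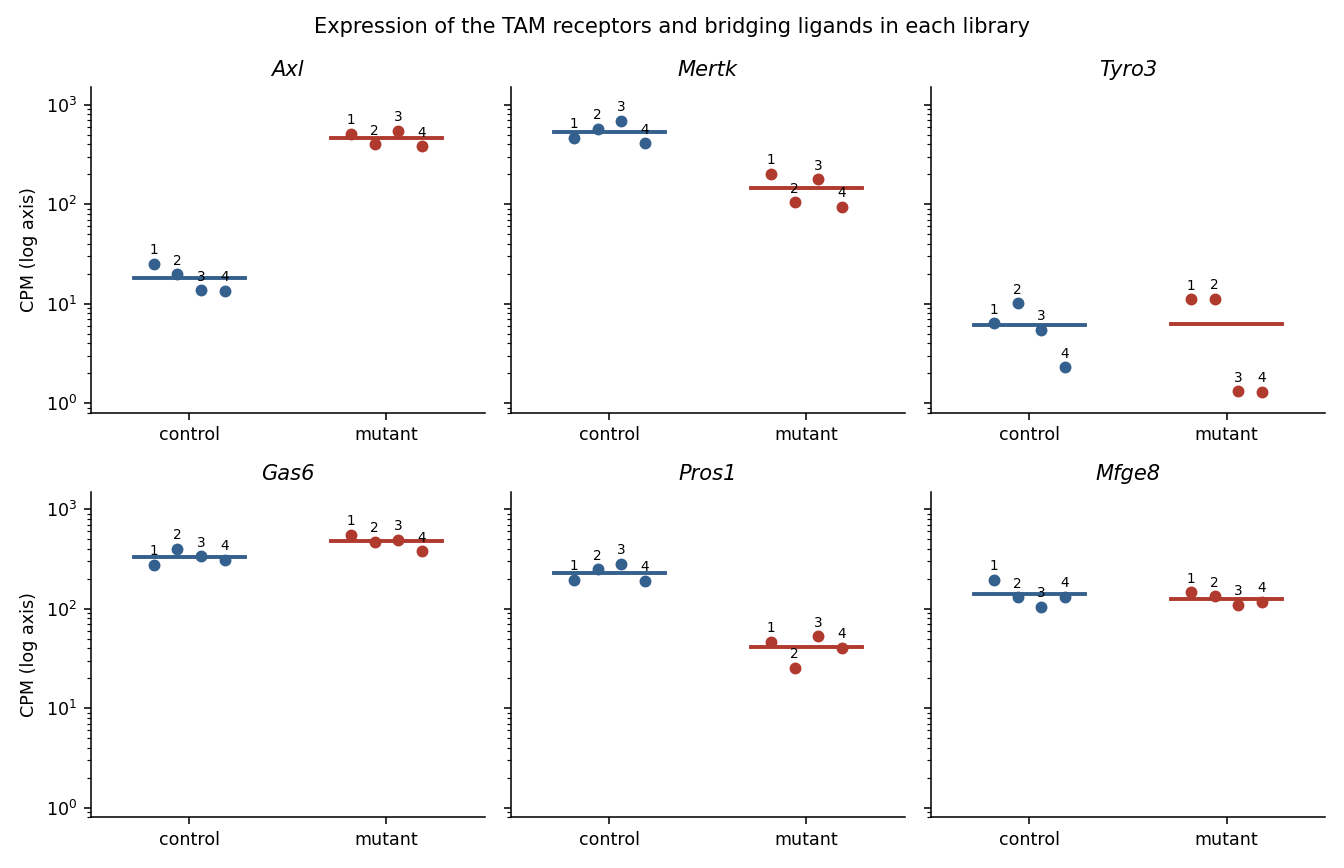
Expression of the 6 genes in each of the 8 libraries in CPM on a log axis, with control libraries in blue, mutant libraries in red, replicate numbers beside the points and the group mean as a horizontal line. The mutants lie above the controls for Axl and below them for Mertk and Pros1, and the groups overlap for Tyro3, Gas6 and Mfge8.

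The sequence before the annotated start of the 3 called genes is shown because SMAD proteins bind DNA. Each line gives the 250 bases upstream of a RefSeq transcript start on GRCm38.p6, 5′ to 3′ on the strand of the gene, with matches to any of 4 short motifs on either strand in capitals.

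Axl, chr7:25788734-25788983, minus strand: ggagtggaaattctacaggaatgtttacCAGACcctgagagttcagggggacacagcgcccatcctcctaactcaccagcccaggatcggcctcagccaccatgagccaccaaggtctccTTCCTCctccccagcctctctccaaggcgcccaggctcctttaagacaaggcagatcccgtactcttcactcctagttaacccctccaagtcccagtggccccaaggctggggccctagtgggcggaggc

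Mertk, chr2:128698665-128698914, plus strand: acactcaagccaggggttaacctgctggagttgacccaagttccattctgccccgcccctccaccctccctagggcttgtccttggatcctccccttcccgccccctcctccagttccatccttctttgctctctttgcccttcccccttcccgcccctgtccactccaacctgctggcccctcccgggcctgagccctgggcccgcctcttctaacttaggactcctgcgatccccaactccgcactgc

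Pros1, chr16:62854057-62854306, plus strand: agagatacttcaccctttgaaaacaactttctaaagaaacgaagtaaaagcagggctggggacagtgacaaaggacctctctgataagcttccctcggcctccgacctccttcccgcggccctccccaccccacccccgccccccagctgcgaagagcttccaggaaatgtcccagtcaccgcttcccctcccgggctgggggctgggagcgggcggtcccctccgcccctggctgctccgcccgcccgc

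The *Axl* window held a SMAD box (CAGAC) that begins 222 bases before the start, and a PU box (GAGGAA), a core bound by the myeloid factor PU.1, on the reverse strand 130 bases before it. The *Mertk* and *Pros1* windows held neither, and none of the 6 held an AP-1 site (TGANTCA) or a MAF site (TGCTGAC). A MAF site followed by TCA contains an AP-1 site, and the other motifs share no such letters. Among the windows that are not printed, *Gas6* held a SMAD box on the reverse strand and *Mfge8* a PU box, and *Tyro3* held none of the motifs. Over the 32851 RefSeq promoter windows of the same length, 42.2% held the SMAD box, 23.3% the PU box, 6.75% the AP-1 site and 3.81% the MAF site. GC content was 60% for *Axl*, 63.6% for *Mertk* and 64.4% for *Pros1*, beside a median of 52.4% over all windows. These matches describe letters in a window. Binding was not measured, and a relation of the matches to the fold changes was not tested.

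*Axl* (ENSMUSG00000002602; GENCODE M21 on GRCm38, chromosome 7 from 25757273 to 25788705, minus strand) encodes a TAM receptor that binds *Gas6*. Its expression was 25.1, 19.7, 13.6 and 13.4 CPM in controls 1 to 4, and 511, 400, 551 and 382 CPM in mutants 1 to 4. Each mutant was far above each control, and the lowest mutant library held 13852 *Axl* reads against 972 in the highest control. Mean expression was 17.9 ± 5.59 CPM for controls and 461 ± 82.7 CPM for mutants (SD, n = 4 each), and the log2 fold change came to 4.68 (SE 0.28, 95% interval 4.06 to 5.31, edgeR adjusted p = 4.2e-05), which is 25.7-fold. It lay between 4.57 and 4.89 over 15 alternative fits, each of which made the call. In bulk RNA of sorted cells, a change in the number of cells of a type and a change in RNA per cell cannot be told apart, and border macrophages are known to express *Axl*. The border macrophage markers moved with *Axl* between the groups, and their part in its level was not tested.

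*Mertk* (ENSMUSG00000014361; chromosome 2 from 128698956 to 128802894, plus strand) encodes the TAM receptor best known for engulfment by macrophages and microglia. Its expression was 467, 573, 694 and 410 CPM in controls 1 to 4, and 202, 104.5, 178 and 94.5 CPM in mutants 1 to 4. The highest mutant stayed below the lowest control. Mean expression was 536 ± 125 CPM for controls and 145 ± 53.2 CPM for mutants (SD, n = 4 each), and the log2 fold change came to -1.89 (SE 0.29, 95% interval -2.55 to -1.23, adjusted p = 0.00345), or 3.70-fold lower. Mutants 1 and 3 held more *Mertk* than mutants 2 and 4, and the same 2 mutants held more *Axl*. Over the alternative fits the log2 fold change lay between -2.09 and -1.73, with the call made in each.

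*Tyro3* (ENSMUSG00000027298; chromosome 2 from 119797733 to 119818104, plus strand) encodes the TAM receptor that is known mainly from neurons. Its expression was 6.35, 10.1, 5.42 and 2.28 CPM in controls 1 to 4, and 11.0, 11.2, 1.31 and 1.3 CPM in mutants 1 to 4. The mutants fell into a pair above and a pair below all 4 controls, so the spread within the group was wider than the difference between groups. The log2 fold change of 0.04 (SE 0.78, 95% interval -1.72 to 1.80, adjusted p = 0.981) leaves changes of over 3-fold in either direction within its interval. Between 47 and 520 *Tyro3* reads were counted per library.

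Sorted microglia held transcripts of neurons and other glia in amounts that differed between libraries. The mean log2 CPM of 20 astrocyte, neuron and oligodendrocyte markers, chosen without *Slc1a3*, which was called lower in mutants, was 5.90, 4.66, 3.82 and 3.51 in controls 1 to 4 and 5.90, 5.42, 4.31 and 4.57 in mutants 1 to 4. Mutants 1 and 2, which were high for *Tyro3*, were also high for these markers, and control 4 was the lowest control for both. This order did not hold throughout. Control 1 had the highest marker level of its group and 6.35 CPM of *Tyro3*. Mutants 3 and 4 were above controls 3 and 4 for the markers and below them for *Tyro3*. The part of neuron and glia transcripts in the *Tyro3* spread was not tested. With the marker level as a covariate, a fit chosen after the data had been seen, the *Tyro3* log2 fold change was -1.15 (adjusted p = 0.397, the lowest of a range that reached 0.999 over the alternative fits). In the same fit *Axl* changed by 4.59 (adjusted p = 7.1e-05), *Mertk* by -1.91 (adjusted p = 0.00875) and *Pros1* by -2.40 (adjusted p = 0.00113). None of 7 neuron markers was called, with 0 at an unadjusted p under 0.05 and 0 in DESeq2. None of 6 oligodendrocyte markers was called by edgeR or DESeq2, with 1 at an unadjusted p under 0.05, and *Slc1a3* was the 1 call among 8 astrocyte markers.

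**Figure D2:**
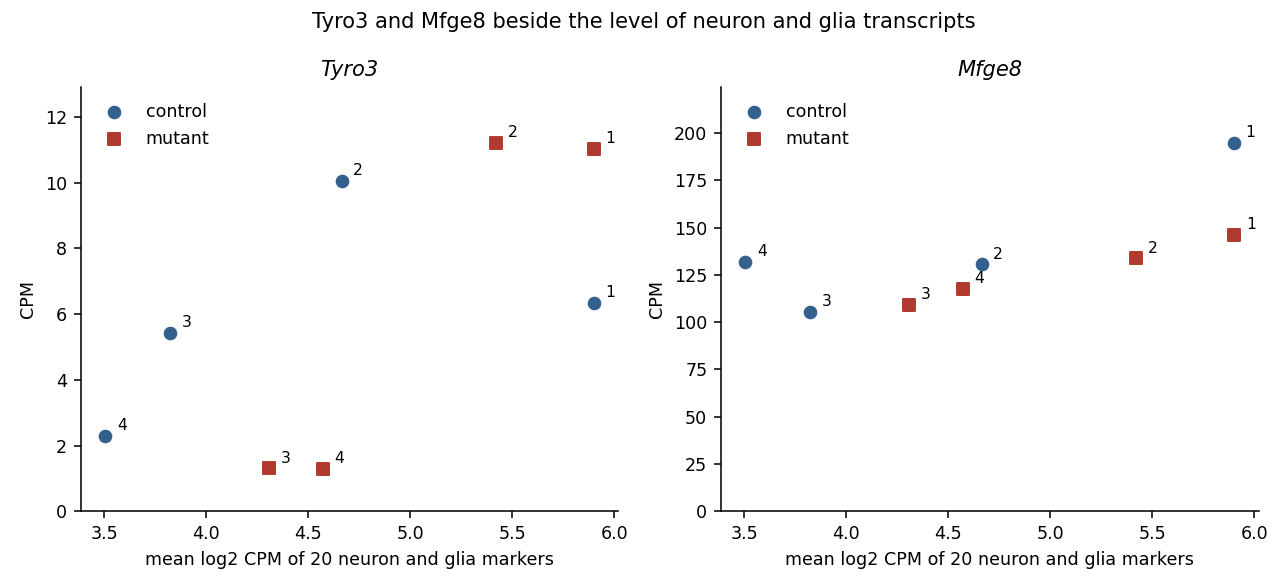
Tyro3 (left) and Mfge8 (right) in CPM on the vertical axis against the mean log2 CPM of 20 neuron, astrocyte and oligodendrocyte markers in the same library, with controls as blue circles, mutants as red squares and replicate numbers beside them. Mutants 1 and 2 are high for Tyro3 and for the markers, and control 1 is the highest control for Mfge8 and for the markers.

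*Gas6* (ENSMUSG00000031451; chromosome 8 from 13465374 to 13494490, minus strand) encodes the ligand shared by the TAM receptors. Its expression was 279, 399, 337 and 312 CPM in controls 1 to 4, and 558, 473, 493 and 379 CPM in mutants 1 to 4. Mutants 1, 2 and 3 were above every control, and mutant 4 was below control 2. Mean expression was 332 ± 50.8 CPM for controls and 476 ± 74.1 CPM for mutants (SD, n = 4 each). For a log2 fold change of 0.52 (SE 0.17, 95% interval 0.13 to 0.91), the unadjusted p was 0.0148 and the adjusted p 0.0846 in edgeR, so *Gas6* was not called. DESeq2 gave 0.52 with an adjusted p of 0.0304, which is a call, and the adjusted p ranged from 0.0304 to 0.159 over the alternative fits. *Gas6* shares 34 exon bases with *Tmem255b* on the opposite strand, and the counts carry no strand, but *Tmem255b* was at most 7.70 CPM in any library.

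*Pros1* (ENSMUSG00000022912; chromosome 16 from 62854307 to 62929346, plus strand) encodes protein S, the ligand of *Tyro3* and *Mertk* that is also a plasma anticoagulant cofactor. Its expression was 194, 249, 283 and 192 CPM in controls 1 to 4, and 46.3, 25.4, 52.9 and 40.7 CPM in mutants 1 to 4. Each mutant was well below each control. Mean expression was 230 ± 44.4 CPM for controls and 41.3 ± 11.7 CPM for mutants (SD, n = 4 each), and the log2 fold change came to -2.47 (SE 0.25, 95% interval -3.04 to -1.90, adjusted p = 0.000409), or 5.55-fold lower. Over the alternative fits it lay between -2.62 and -2.30 and was called in each. The microglia markers fell between the same groups, and their relation to *Mertk* and *Pros1* was not tested.

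*Mfge8* (ENSMUSG00000030605; chromosome 7 from 79133768 to 79149060, minus strand) was expressed at 195, 131, 105 and 132 CPM in controls 1 to 4 and at 146, 134, 109 and 118 CPM in mutants 1 to 4. The groups overlapped, with control 1 above the other libraries. The log2 fold change was -0.15 (SE 0.20, 95% interval -0.61 to 0.31, adjusted p = 0.681), so a change of the size seen for *Mertk* or *Pros1* lies outside the interval. Without control 1, which was also the control with the most neuron and glia transcripts, it was 0.047 (adjusted p = 0.887, within a range of 0.236 to 0.940 over the alternative fits).

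Levels of different genes were compared in TPM, in which counts are divided by the length of the annotated exons and scaled to the same sum in each library. In controls, *Gas6* (275 ± 58.2 TPM) and *Mertk* (260 ± 66.8 TPM) were the most abundant of the 6 and did not differ beyond their spread. *Pros1* followed at 118 ± 26.5 TPM, then *Mfge8* at 62.6 ± 15.2 TPM, *Axl* at 7.48 ± 2.29 TPM and *Tyro3* at 2.08 ± 1.21 TPM, each without overlap with the gene before it. In mutants, *Gas6* stood at 359 ± 83.8 TPM and *Axl* at 175 ± 40.4 TPM, without overlap between them. *Mertk* (64.6 ± 27.6 TPM) and *Mfge8* (51.7 ± 10.6 TPM) overlapped, *Pros1* lay below both at 19.2 ± 5.82 TPM, and *Tyro3* was again the lowest at 2.0 ± 1.88 TPM (SD, n = 4 for each value). The place of *Mfge8* depends on the length used: with the longest transcript in place of all exons its level was 104 ± 26.9 TPM in controls, where it overlapped *Pros1* at 121 ± 26.2 TPM, and 88.2 ± 17.8 TPM in mutants.

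*Mertk* was the main TAM receptor transcript in each control and *Axl* in each mutant. *Mertk* made up 96.4 ± 1.32% of the TPM of the TAM receptors in controls, from 94.7 to 97.8% over mice, and 25.9 ± 4.11% in mutants. *Axl* made up 2.90 ± 1.13% in controls and 73.3 ± 4.22% in mutants, from 67.8 to 77.5%. Summed over the receptors, the level was 270 ± 67.3 TPM in controls and 242 ± 67.9 TPM in mutants (SD, n = 4 each), with overlapping groups. The log2 ratio of *Axl* to *Mertk* was -5.14 ± 0.60 in controls and 1.52 ± 0.31 in mutants. For the ligands, *Gas6* made up 69.9 ± 3.04% of the *Gas6* and *Pros1* TPM in controls and 94.8 ± 1.44% in mutants, while their sum was 393 ± 80.0 TPM and 378 ± 86.6 TPM. These shares are a description and combine genes whose fold changes are tested above. With the longest transcript as length, the *Axl* share was 76.1 ± 3.95% in mutants and 3.37 ± 1.3% in controls.

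**Figure D3:**
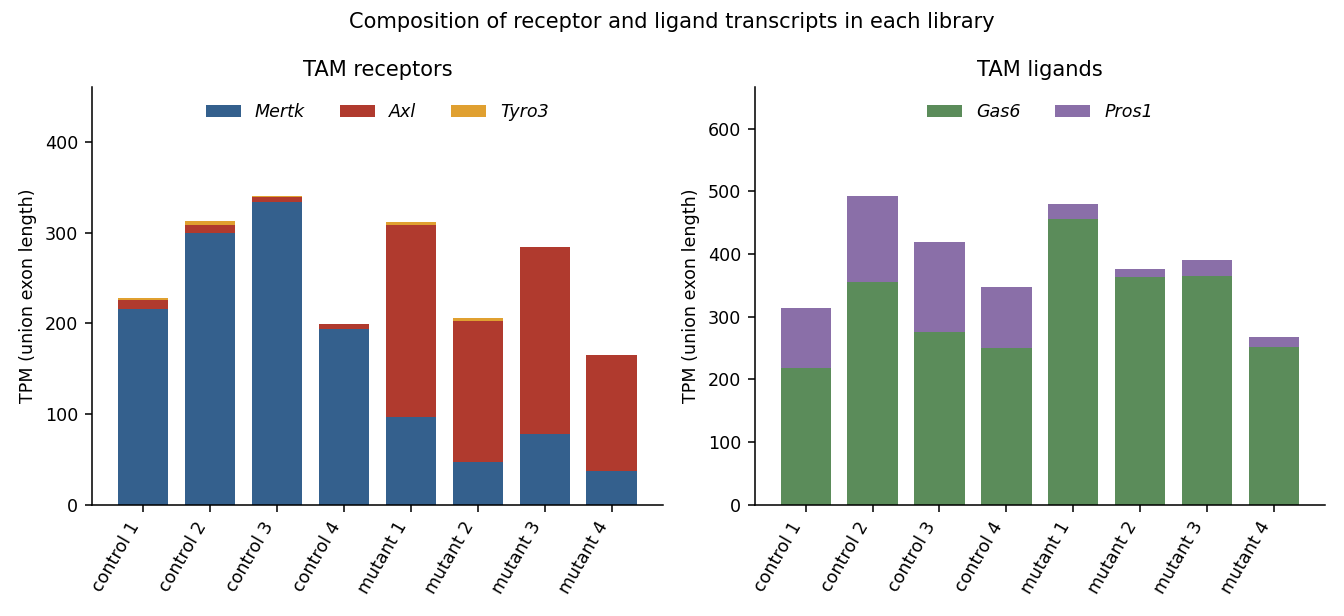
TPM per library, stacked by gene, for the TAM receptors Mertk, Axl and Tyro3 (left) and the ligands Gas6 and Pros1 (right), in 4 control and 4 mutant libraries, with linear axes from 0. Mertk fills most of the receptor bar in each control and Axl in each mutant, and Pros1 is a thin part of the ligand bar in mutants.

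Around the TAM receptors, 62 other genes of efferocytosis were listed by role, of which 60 passed the filter and 22 were called (36.7%, beside 12.3% of all tested genes), 10 higher and 12 lower in mutants. Their median log2 fold change was -0.03, beside 0.01 over all tested genes. The lists were chosen with earlier results of these data known, so their share of calls is not a test of the set. They also hold 9 transcription factors, with 6 calls, and 5 genes of cytokine signalling, with 3 calls. Of the 22 calls, 16 were made in all alternative fits that gave a value. The counts given below for each list stand beside the same 12.3%, and no list was tested as a set.

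Among 10 other phosphatidylserine receptors, 9 were tested and 3 rose. *Timd4* (Tim-4), which tethers apoptotic cells to resident macrophages, was at 35.4 ± 8.25 CPM for mutants and 0.387 ± 0.532 CPM for controls (log2 fold change 6.51, SE 1.07, adjusted p = 0.00461). *Stab2*, a scavenger receptor, had no read in any control and 3.04 ± 0.726 CPM in mutants, at least 152-fold higher against a floor of 3 counts over the control group. Its relative *Stab1* was at 462 ± 52.6 CPM against 171 ± 34.5 CPM (log2 fold change 1.43, SE 0.18, adjusted p = 0.00119). *Timd4* and *Stab1* are also known from border macrophages, whose markers moved with them, and the part of those cells in these levels was not tested. *Havcr1* (Tim-1) was at 0 in all 8 libraries.

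Of the 3 integrin subunits that receive *Mfge8*, 2 fell. *Itgb3*, the β3 subunit, fell from a control level of 25.0 ± 4.56 CPM to 0.204 ± 0.302 CPM (log2 fold change -6.85, SE 0.94, adjusted p = 0.00178). *Itgb5*, the β5 subunit, fell from 1894 ± 392 to 488 ± 116 CPM (log2 fold change -1.96, SE 0.23, adjusted p = 0.000886). *Itgav*, which encodes the αv subunit that pairs with both, was at 47.0 ± 5.65 CPM for mutants and 39.6 ± 3.40 CPM for controls and was not called (log2 fold change 0.25, SE 0.15, adjusted p = 0.316).

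Other bridging molecules gave 1 call among 8 tested, a rise of *Lgals3* (galectin-3, which binds glycans of *Mertk*) to 170 ± 16.5 CPM from 86.9 ± 25.7 CPM (log2 fold change 0.97, SE 0.23, adjusted p = 0.0252). That call was lost without control 1, mutant 2 or mutant 4 (adjusted p 0.0516 to 0.0701), and with the neuron and glia marker level as a covariate (adjusted p = 0.0517). The complement genes *C1qa*, *C1qb* and *C1qc*, which opsonise debris and were at 3428 to 7763 CPM as group means, had log2 fold changes of -0.04, -0.22 and -0.27 and were not called.

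Engulfment signalling downstream of the receptors gave 5 calls among 13 tested genes, 1 higher and 4 lower, beside 12.3% of all tested genes. *Vav3* rose to 20.8 ± 6.88 CPM from 2.88 ± 1.52 CPM (log2 fold change 2.85, SE 0.43, adjusted p = 0.00320), and the related exchange factor *Vav1* fell to 118 ± 39.4 CPM from 389 ± 119 CPM (log2 fold change -1.72, SE 0.29, adjusted p = 0.00532). *Elmo1*, which with *Dock* proteins activates *Rac1* at the phagocytic cup, fell by 1.95 on the log2 scale (SE 0.35, adjusted p = 0.00698). *Dock2* (log2 fold change -1.13, SE 0.19, adjusted p = 0.00547) and *Rhog* (-0.64, SE 0.17, adjusted p = 0.0410) fell as well, and were named after their values were seen. The *Rhog* call was lost without any of 7 mice, control 1 being the exception (adjusted p 0.0540 to 0.119), and with library totals, no filter or the marker covariate, and was made in 5 of 15 alternatives. *Rac1* itself was not called (log2 fold change -0.44, SE 0.13, adjusted p = 0.0633), and 2309 of its exon bases overlap *Daglb* on the opposite strand.

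For the enzymes that make TAM ligands active, *Ggcx*, the vitamin K-dependent γ-glutamyl carboxylase that *Gas6* and *Pros1* need, fell to 14.3 ± 3.50 CPM from 34.7 ± 3.09 CPM (log2 fold change -1.28, SE 0.21, adjusted p = 0.00429), the only call among 3 genes of vitamin K carboxylation. Of 5 genes of receptor shedding, edgeR called 0, with 2 at an unadjusted p under 0.05 and 2 called by DESeq2, in both cases *Adam17* and *Rhbdf2*. *Adam17*, a protease known to release the *Axl* and *Mertk* ectodomains, had a log2 fold change of -1.04 (SE 0.31, adjusted p = 0.0578) and no overlap between groups. EdgeR called it with the replicate block (adjusted p = 0.0447), with 10 counts required in all 8 libraries (0.0364) and without mutant 1 (0.00947). Of 5 genes that set phosphatidylserine exposure, *Tmem30a*, a subunit of the flippases, fell by 0.80 on the log2 scale (SE 0.13, adjusted p = 0.00421).

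Transcription factors known to regulate TAM and bridging genes gave 6 calls among 9 tested, 3 higher and 3 lower. Of all tested genes, 12.3% were called. The nuclear receptor *Nr1h3* (LXRα), known to induce *Mertk*, was at 19.7 ± 6.21 CPM for mutants and 1.58 ± 1.16 CPM for controls (log2 fold change 3.64, SE 0.93, adjusted p = 0.0346). *Mertk* itself fell, and its relation to *Nr1h3* was not tested. Leaving out any of 6 mice, mutant 4 and control 4 being the exceptions, ended the *Nr1h3* call (adjusted p 0.0544 to 0.0952), as did the marker covariate (adjusted p = 0.0563). *Pparg* rose (log2 fold change 2.59, SE 0.49, adjusted p = 0.00974) and *Ppard* fell (log2 fold change -2.28, SE 0.47, adjusted p = 0.0140), both at group means under 10 CPM. Named after their values were seen, the other calls here were *Maf* (log2 fold change 1.11, adjusted p = 0.0452), *Rxrb* (-0.83, adjusted p = 0.0184) and *Irf8* (-1.42, adjusted p = 0.00184). The *Maf* call was lost without any of 6 mice, control 4 and mutant 1 being the exceptions (adjusted p 0.0773 to 0.125) or with no filter (adjusted p = 0.0637), and the *Rxrb* call without control 2, control 3 or mutant 2 (adjusted p 0.0509 to 0.0580).

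TAM receptors are known to restrain cytokine signals by way of the interferon receptor and SOCS proteins. Of 5 genes listed for that brake 3 were called, beside 12.3% of all tested genes. *Socs3* fell from 1516 ± 640 CPM to 305 ± 73.6 CPM (log2 fold change -2.31, SE 0.33, adjusted p = 0.00213). *Ifnar2* rose by a log2 fold change of 0.93 (SE 0.17, adjusted p = 0.00766) and *Socs1* by 0.79 (SE 0.19, adjusted p = 0.0253), a call that was lost without any of controls 1, 3 and 4 and mutants 2 and 3 (adjusted p 0.0530 to 0.0770), or with no filter (adjusted p = 0.0528). Of the genes named from these lists, *Stab1*, *Stab2*, *Itgav*, *Elmo1*, *Dock2*, *Adam17*, *Nr1h3*, *Maf* and *Ifnar2* share between 34 and 634 exon bases with other annotated genes, whose reads unstranded counts cannot fully set apart.

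**Figure D4:**
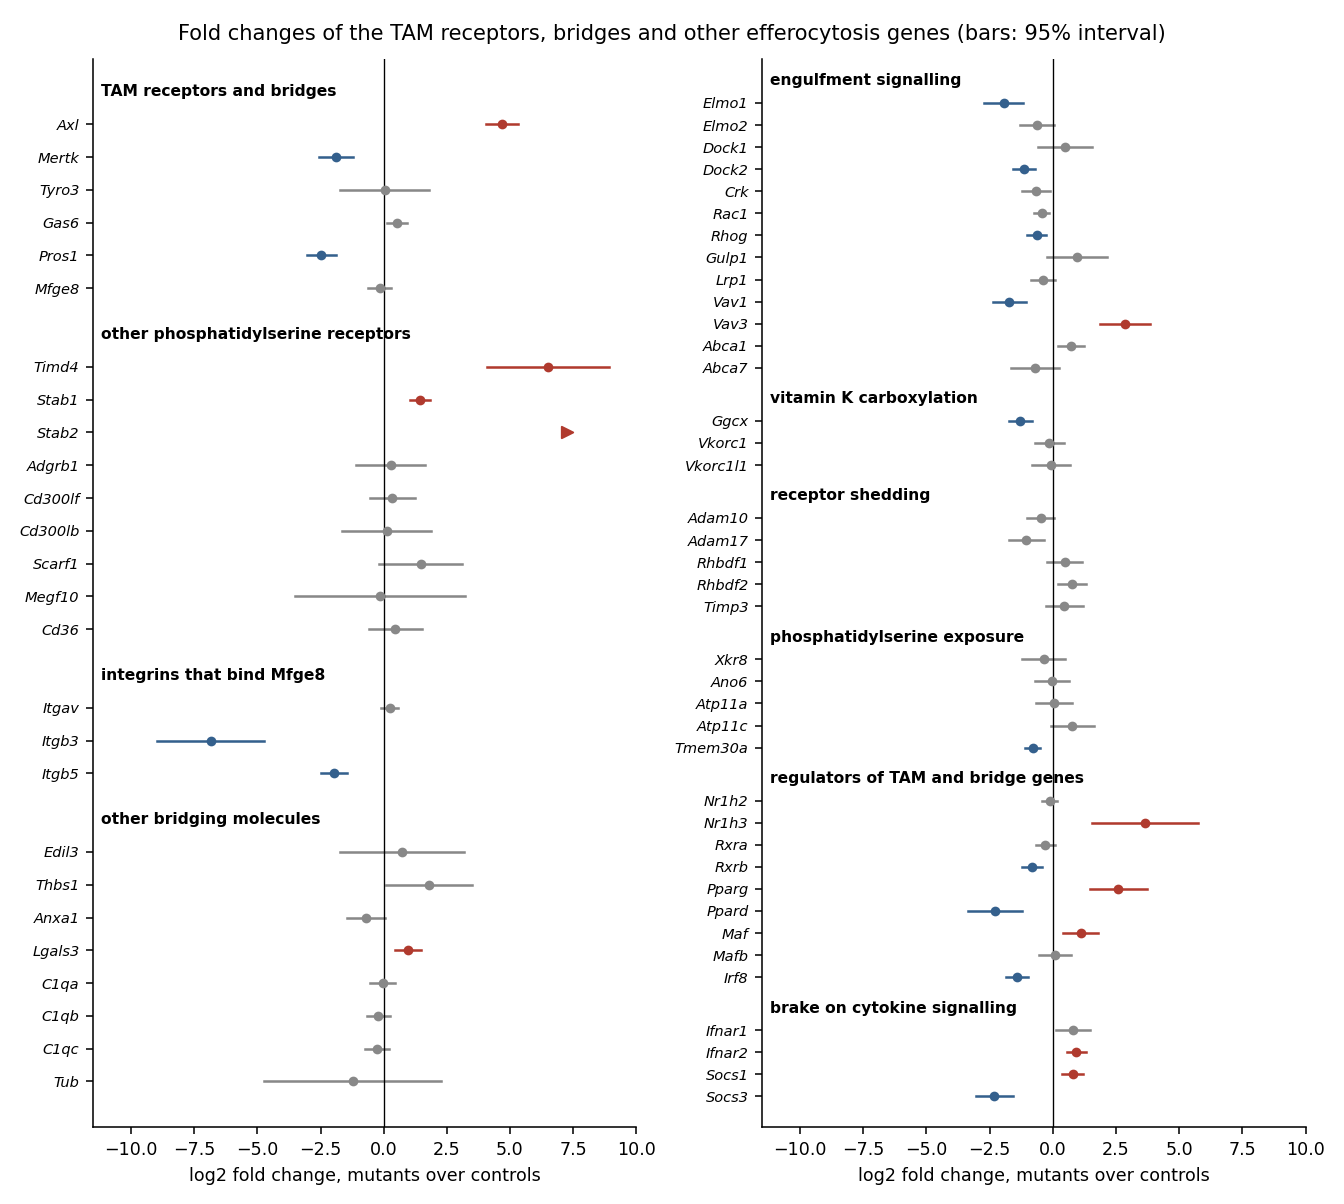
Log2 fold change of mutants over controls with its 95% interval for the TAM receptors and bridges and for 59 of the 60 other tested efferocytosis genes, grouped by role, with called rises in red, called falls in blue and genes that were not called in grey. Axl, Timd4, Vav3 and Nr1h3 lie to the right of 0 and Mertk, Pros1, Itgb3 and Itgb5 to the left, and the arrowhead marks the lower bound for Stab2, which had no read in controls.

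For each of the 6 genes, the 3 autosomal protein-coding genes with the most similar profile over the 8 libraries were taken from 12840 genes, by the smallest root mean square difference of centred log2 CPM. For *Axl* they were *Mrc1* (0.28), *Cd38* (0.35) and *Vcam1* (0.36), beside a spread of *Axl* itself of 2.38. *Mrc1* encodes the mannose receptor and is one of the border macrophage markers, with group means of 328 CPM for mutants and 11.1 CPM for controls. For *Mertk* they were *Pald1* (0.13), *Gcnt1* (0.14) and *Cep68* (0.14), and for *Pros1* *Cmtm6* (0.18), *Daglb* (0.20) and *Ncf1* (0.21). *Gas6* was nearest to *Esyt1*, *Asns* and *Adipor1* (0.10 to 0.13) and *Mfge8* to *Rnf10*, *Me2* and *Arsg* (0.09 to 0.13). *Tyro3* was nearest to *Zfp3* at 0.44, *Rtn2* at 0.47 and *Caskin2* at 0.54, beside a spread of 1.23. The other spreads were 1.04 for *Mertk*, 1.29 for *Pros1*, 0.32 for *Gas6* and 0.26 for *Mfge8*. The small distances of *Gas6* and *Mfge8* thus stand beside small spreads. Over 8 libraries in 2 groups, a gene with a large group difference has near neighbours with a like difference. Of these neighbours, *Daglb* shares 2309 of its 9567 exon bases with *Rac1* on the opposite strand, and *Esyt1*, *Ncf1*, *Caskin2*, *Vcam1* and *Arsg* share 48 to 421 with other genes.

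**Figure D5:**
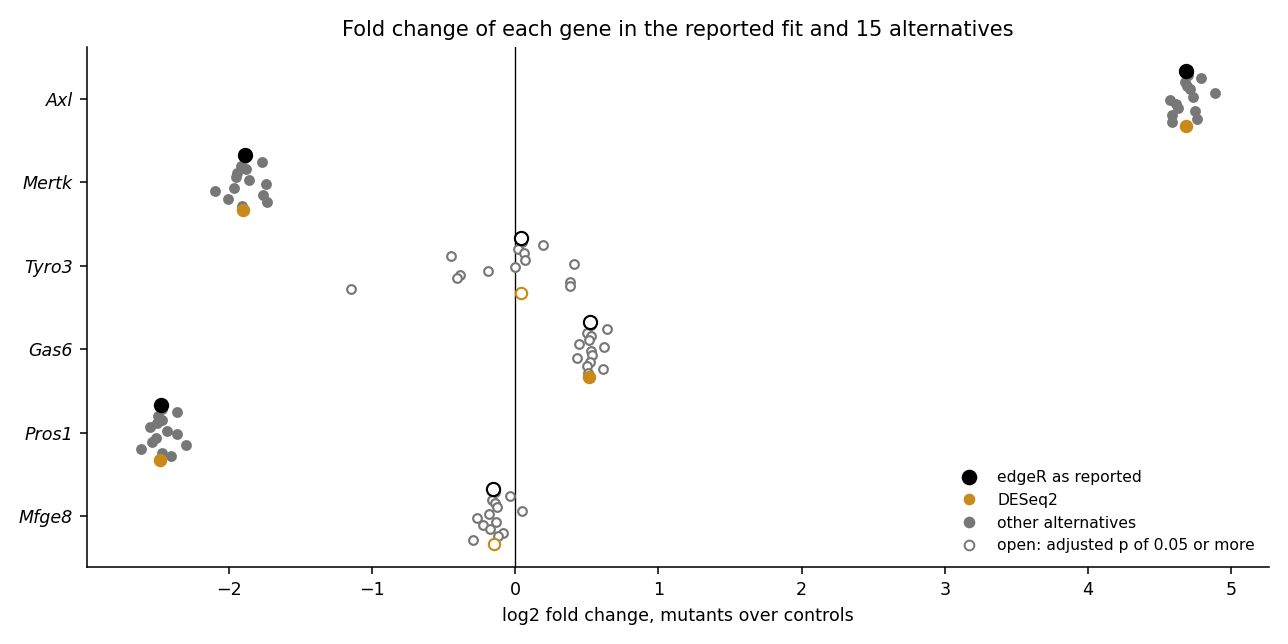
Log2 fold change of mutants over controls for the 6 genes in the reported edgeR fit (black), in DESeq2 (orange) and in 14 other alternatives (grey), with filled points for an adjusted p under 0.05. Axl, Mertk and Pros1 are filled throughout, Gas6 is filled in DESeq2 only, and Tyro3 lies on both sides of 0.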

How the data were processed

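RNA of microglia sorted from 4 mutant and 4 control mice was sequenced. By their labels the libraries were made with Nextera XT and read from a single end, and by the study's methods with NEBNext after polyA selection and read from both ends; either source says unstranded. The methods also place the *Smad2/3* data in another deposit, and genotype, cell type and age were the grounds for treating these libraries as that experiment. The authors deposited raw read counts per Ensembl gene. The methods name Rsubread for alignment to mm10 and featureCounts for counting, and the submitters' processing notes name DESeq2 1.28. The authors' table of their own comparison (fold changes and p-values) was not used.

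The 6 genes and all gene lists were chosen with earlier results of these data known. Of the 55573 listed genes, 55480 matched GENCODE M21, which gave symbols, coordinates and exon lengths. A minimum of 10 counts in 4 or more of the 8 libraries left 20153 genes, which were tested with edgeR 4.0.16 in R 4.3.3 (TMM, glmQLFit, glmQLFTest, Benjamini-Hochberg over all tested genes, call under 0.05). The SE of a log2 fold change is its size over the square root of F. The biological coefficient of variation was 0.542 beside libraries of 35639502 to 41946479 counts, and for all but low genes the spread between mice exceeds counting error. The test was first run on counts simulated from its own fitted dispersions, with large changes in well-counted genes only. That check does not bear on small changes or on genes with low counts. DESeq2 1.42.0 was an alternative. Other alternatives were RLE factors, library totals, no filter, a minimum of 10 counts in every library, a replicate block, each mouse left out with the tested genes kept, and the neuron and glia marker level as a covariate, the last added after seeing the data. Group means are given ± SD over mice. TPM used the union of annotated exons or the longest transcript. A bound against a group without reads used 3 counts over the group, and covers counting error only. Genes named from each list were up to 3 calls with the largest log2 fold change in size, plus genes the text had to account for, and 1 listed gene counts in its list but is not reported here. No 50-base word of the 6 genes was shared with transcripts of another gene. Promoter windows came from RefSeq (GRCm38.p6), for all 6 genes. Python 3.11.15, pandas 2.3.3, numpy 2.4.6 and matplotlib 3.10.9 made tables and plots.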

Additional observations from a re-analysis of the deposited data

How the results depend on the processing

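The calls of *Axl*, *Mertk* and *Pros1* were made in each of the 15 alternatives, with log2 fold changes of 4.57 to 4.89, -2.09 to -1.73 and -2.62 to -2.30, and 3 of the 6 genes were called in each alternative except DESeq2, which called 4. The fourth was *Gas6*, whose log2 fold change in DESeq2 was 0.52 (adjusted p = 0.0304); leaving out each mouse gave 0.43 to 0.62, without a call. *Tyro3* changed sign in 6 alternatives and was called in none: -0.44 with the replicate block, -1.15 with the neuron and glia marker level as a covariate, and -0.41 to 0.41 with each mouse left out. *Mfge8* was between -0.27 and 0.05 with each mouse left out, and above 0 only without control 1 (0.047). The number of genes called was 2485, 4751 in DESeq2 and 1567 to 2499 with each mouse left out, 1567 without control 3 and 1572 without control 2. Of the other efferocytosis genes, 17 to 26 were called. Library totals without a composition factor moved the median log2 fold change of all genes from 0.01 to 0.13, and no call among the 6 changed. Same-numbered mice deviated together with correlations of 0.17, 0.02, 0.14 and 0.11. Mutants 1, 3 and 4 correlated best with the control of their own number, and mutant 2 with control 1. The numbers were not taken as pairs in the reported fit, and what they stand for was not tested. With the replicate block 2383 genes were called, and no call among the 6 changed. The cause of these differences was not tested. The interval of *Tyro3* is wide beside a spread between mice of 5.67 CPM (SD) on a mean of 6.21 CPM in mutants.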
